A study of Mus musculus with 12 samples.

Results

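The hypoxia-inducible genes examined here are Slc2a1, Adm, Bnip3, Egln1, Egln3, Ankrd37, Ndrg1, Pdk1, Ddit4 and Pfkfb3, which are known targets of the hypoxia-inducible factors (HIF). They were taken by gene symbol from the main probesets of an exon array, and all 10 were quantified among 17279 genes, with 105 of their 107 main probesets kept. Total RNA came from the whole brains of 12 newborn female mice, 6 wildtype (KIS +/+) and 6 KIS-ko (KIS -/-), 1 brain of each genotype from each of 6 litters. KIS-ko mice lack the protein kinase KIS, which is encoded by Uhmk1, had been backcrossed to C57BL6/N, and received no treatment. The knockout is not restricted to a cell type, and each array holds the RNA of the whole brain of 1 animal, so that fewer cells of a type and less RNA per cell cannot be told apart. The values were read for the oxygen state of the newborns, with the questions of whether the genes rose and fell together over the 12 brains and whether they differed between littermates.

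HIF is a pair of proteins, an oxygen-regulated alpha subunit and a constant partner, that binds a short DNA motif near its target genes. When oxygen is present, prolyl hydroxylases of the Egln family modify the alpha subunit, and the von Hippel-Lindau protein then marks it for destruction. When oxygen is low the alpha subunit persists, and its targets raise glucose uptake and glycolysis, turn pyruvate away from the mitochondria, dilate vessels, restrain growth, and, through Egln1 and Egln3, restore the breakdown of HIF itself.

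The core letters of the HIF motif are ACGTG or GCGTG, read on either strand, where a palindromic CACGTG counts on both strands. They were searched in the 250 bases before the RefSeq starts of the genes (GRCm38.p6), where 9 of the 10 genes had an entry and Ndrg1 was not analysed here. At least 1 match was found for all 9 genes, in 10 of their 11 windows (90.9%), against 38.6% of the 32851 windows of all genes. ACGTG alone was found in 8 of the 11 windows (72.7%) against 16.6% of all windows. These are descriptions of letters, and the genes were chosen as HIF targets. The following stretches are shown because they belong to the genes whose values moved most closely together (Slc2a1 with Egln3, Egln1 with Pfkfb3, and Bnip3 with Pdk1), and capitals mark the matches on either strand.
Slc2a1 (chr4:119108681-119108741, plus strand): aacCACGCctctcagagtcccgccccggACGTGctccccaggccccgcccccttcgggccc
Egln3 (chr12:54204071-54204124, minus strand): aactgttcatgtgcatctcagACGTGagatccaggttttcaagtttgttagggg
Egln1 (chr8:124949290-124949350, minus strand): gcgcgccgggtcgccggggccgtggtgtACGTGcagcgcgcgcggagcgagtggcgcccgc
Pfkfb3 (chr2:11502110-11502170, minus strand): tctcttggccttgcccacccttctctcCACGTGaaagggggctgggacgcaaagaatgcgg
Bnip3 (chr7:138909581-138909641, minus strand): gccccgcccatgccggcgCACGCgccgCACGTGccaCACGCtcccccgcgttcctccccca
Pdk1 (chr2:71873118-71873178, plus strand): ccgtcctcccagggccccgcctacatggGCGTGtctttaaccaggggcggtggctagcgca
The stretches of Slc2a1 and Bnip3 held both forms of the motif, whereas the windows of Egln3 and Pdk1 had a single match each.

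Gene values are means over the kept probesets of log2(PLIER signal + 16), so that differences of dim genes are understated, and levels are not compared between genes. The medians of the 12 arrays lay between 460 and 526 on the linear scale, and 44.6% of all kept probesets were brighter than 713, the 95th percentile of the intron controls. The number of arrays limits the precision. Uhmk1 was lower in KIS-ko in 6 of 6 litters (log2 difference -2.11, SE 0.068, limma adjusted p = 2.9e-07), which checks the genotype labels. The neuronal markers Syt1 (12.71 ± 0.11 in wildtype, SD, n = 6) and Stmn2 (13.35 ± 0.086) stood far above the log2 value of 9.51 that corresponds to the 95th percentile of the controls.

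None of the 10 hypoxia-inducible genes differed between KIS-ko and wildtype littermates past the adjusted threshold of 0.05 (limma with the litter as a block), where 0.00579% of all genes did. At an unadjusted p under 0.05 there were also 0 of 10, against 6.16% of all genes. Of the 10 genes 7 had a lower mean in KIS-ko, as did 69.8% of all genes, but 8 of 10 had a higher mean, and 2 a lower one, once each array was centred on its median gene, where 37.1% of all genes were lower. The median log2 difference was -0.020 over the 10 genes and -0.036 over all genes, and 0.037 against 0.021 after centring. The fitted differences lay between -0.077 and 0.13, and each 95% interval included 0.

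**Figure D1:**
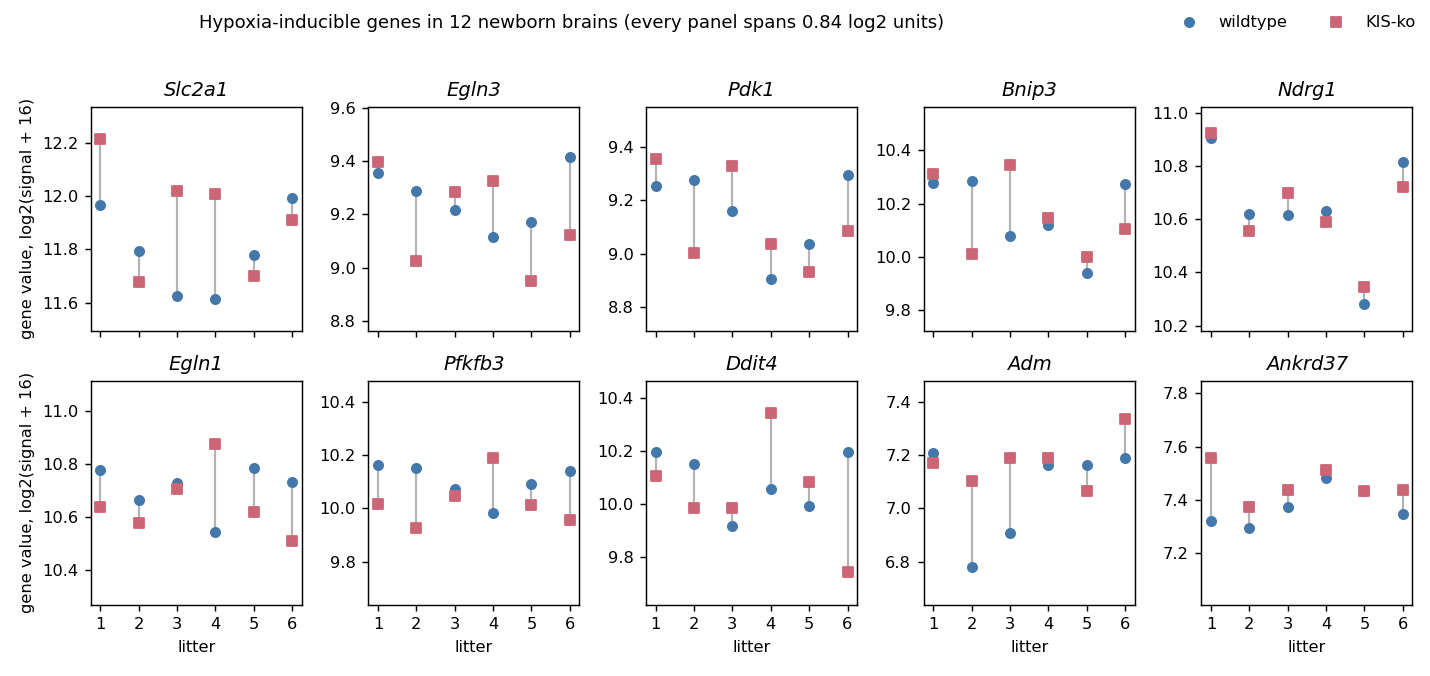
Gene values, log2(signal + 16), of the 10 hypoxia-inducible genes (vertical axes, each spanning the same number of log2 units) by litter (horizontal axes), with circles for wildtype, squares for KIS-ko and lines joining littermates. The symbols of the genotypes overlap in every panel, and in the Ndrg1 panel littermates lie close together while litter 1 lies highest and litter 5 lowest.

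Egln1 and Egln3 encode prolyl hydroxylases that sense oxygen and are themselves induced by HIF. Egln1 is listed on chromosome 8 from 127432847 to 127439677 (positions of the deposited table, whose build is not named and is not GRCm38), and its 6 probesets were all above the 95th percentile of the controls. Its lowest, median and highest gene values were 10.55, 10.73 and 10.79 in wildtype and 10.51, 10.63 and 10.87 in KIS-ko. The highest and the lowest brain were both KIS-ko, from litters 4 and 6, and the groups overlapped over the whole wildtype range. The difference was -0.052 (SE 0.070, limma adjusted p = 0.788), with KIS-ko lower in 5 of 6 litters and, in litter 4, higher by 0.33. It was -0.13 without litter 4 and 0.0053 with centred arrays.

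Egln3 (chromosome 12, 55280005 to 55304640) was measured by 13 probesets, of which 4 were above that level. Wildtype brains ran from 9.12 over a median of 9.25 to 9.42, and KIS-ko brains from 8.95 over 9.20 to 9.40. The KIS-ko brains of litters 5 and 2 (8.95 and 9.03) lay below every wildtype brain, and the other KIS-ko brains lay within the wildtype range. The difference was -0.076 (SE 0.073, limma adjusted p = 0.725), and although 11 of the 13 probesets were lower on average in KIS-ko, only 3 of the 6 litters were. It was -0.13 without litter 4 and -0.020 with centred arrays.

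Slc2a1, Pfkfb3 and Pdk1 direct the use of glucose. Slc2a1 encodes the glucose transporter GLUT1, which carries glucose across the blood-brain barrier (chromosome 4, 118793000 to 118808975, 9 probesets, all above the 95th percentile of the controls). Its values were 11.615, 11.787 and 11.995 (lowest, median and highest) in wildtype and 11.679, 11.959 and 12.216 in KIS-ko. The KIS-ko brains of litters 1, 3 and 4 were higher than all 6 wildtype brains, and the other KIS-ko brains lay within the wildtype range. The difference was 0.13 (SE 0.082, limma adjusted p = 0.685). All 9 probesets had a higher mean in KIS-ko, but the litters were split, with 3 differences of 0.25 to 0.39 and 3 of -0.12 to -0.078. The mean difference was 0.072 without litter 3 and 0.073 without litter 4. With each array's median gene subtracted, KIS-ko was the higher littermate in 5 of 6 litters, with a mean difference of 0.18 ± 0.18 (SD, n = 6 litters).

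Pfkfb3 encodes an enzyme that makes the activator of phosphofructokinase and so speeds glycolysis (chromosome 2, 11393454 to 11423358, 21 probesets, 18 above the 95th percentile of the controls). Its lowest, median and highest values were 9.98, 10.12 and 10.16 in wildtype and 9.93, 10.01 and 10.19 in KIS-ko. It was lower in KIS-ko in 5 of 6 litters and in 19 of 21 probesets, with the KIS-ko brain of litter 4 as the highest of all 12. The difference of -0.077 (SE 0.062, limma adjusted p = 0.70) was -0.020 with centred arrays and -0.13 without litter 4.

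Pdk1 encodes a kinase that shuts off pyruvate dehydrogenase and thereby the entry of pyruvate into the citric acid cycle (chromosome 2, 71711334 to 71739832, 13 probesets, 4 above the 95th percentile of the controls). Wildtype values were 8.91, 9.21 and 9.30 and KIS-ko values 8.93, 9.06 and 9.36 (lowest, median and highest). The genotypes overlapped almost fully, and the litters divided 3 to 3. The difference was -0.031 (SE 0.069, limma adjusted p = 0.872). It was 0.026 with centred arrays, 0.018 without litter 2 and -0.071 without litter 3, and its sign changed in 7 of 18 alternative settings.

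Bnip3 encodes a protein of the outer mitochondrial membrane that promotes the removal of mitochondria (chromosome 7, 146082952 to 146101188, 9 probesets, of which 2 are marked as matching 1 place). It ranged from 9.94 over a median of 10.20 to 10.29 in wildtype and from 10.001 over 10.12 to 10.35 in KIS-ko. KIS-ko was higher in 4 of 6 litters, by at most 0.27 (litter 3), and lower by 0.27 in litter 2 and by 0.17 in litter 6. The mean difference was -0.0098 (SE 0.069, limma adjusted p = 0.960). It was 0.047 with centred arrays, 0.043 without litter 2 and -0.065 without litter 3, and its sign changed in 8 of 18 alternative settings.

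Ddit4 and Ndrg1 are stress-responsive genes tied to growth. Ddit4 encodes REDD1, an inhibitor of mTORC1 that glucocorticoids also induce (chromosome 10, 59412522 to 59414508, 5 probesets, 4 above the 95th percentile of the controls). Its lowest, median and highest values were 9.92, 10.10 and 10.20 in wildtype and 9.74, 10.04 and 10.34 in KIS-ko. The KIS-ko group was the wider one and held both extremes, litter 6 below and litter 4 above every wildtype brain. The litter differences ran from -0.45 to 0.28, around a mean of -0.044 (SE 0.084, limma adjusted p = 0.846), which was -0.11 without litter 4 and 0.038 without litter 6.

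Ndrg1, which in the nervous system is known for its role in Schwann cells and peripheral myelin (chromosome 15, 66761402 to 66792096, 19 probesets, 17 above the 95th percentile of the controls), had values of 10.28, 10.62 and 10.91 in wildtype and 10.35, 10.64 and 10.92 in KIS-ko. Its genotype difference was -0.0048 (SE 0.047, limma adjusted p = 0.972), and littermates differed by 0.061 on average.

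Adm encodes adrenomedullin, a peptide that dilates vessels (chromosome 7, 117771798 to 117772931). Only 3 of its 4 probesets were kept, none of them above the 95th percentile of the controls and none marked as matching 1 place. Its values were 6.78, 7.16 and 7.21 in wildtype and 7.07, 7.18 and 7.34 in KIS-ko, close to the median control of 7.03. The wildtype brains of litters 2 and 3 lay below the other 10 brains, and the difference was 0.11 (SE 0.065, limma adjusted p = 0.685). It moved with the processing, from 0.053 with no filter on the relative standard deviation to 0.23 with that filter at 0.2 (limma adjusted p = 0.414), which left 1 probeset with a mean signal of 62.7, below the median control of 114, and was 0.065 without litter 2 and 0.21 by the fold change of the study's methods.

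Ankrd37 encodes an ankyrin repeat protein (chromosome 8, 47082293 to 47085112). None of its 7 kept probesets was above the 95th percentile of the controls. Wildtype values were 7.29, 7.36 and 7.48 and KIS-ko values 7.37, 7.44 and 7.56 (lowest, median and highest), with overlapping groups. It was the only one of the 10 genes that was higher in KIS-ko in all 6 litters, which 0.92% of all genes were, with litter differences of 0.00034 to 0.24. The mean difference was 0.083 (SE 0.048, limma adjusted p = 0.685). With the array median gene removed, 5 of 6 litters were higher, with a mean difference of 0.14 ± 0.15 (SD, n = 6 litters). The difference was 0.052 without litter 1 and 0.0077 with the relative standard deviation filter at 0.2. With the median over probesets in place of their mean it was -0.060.

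**Figure D2:**
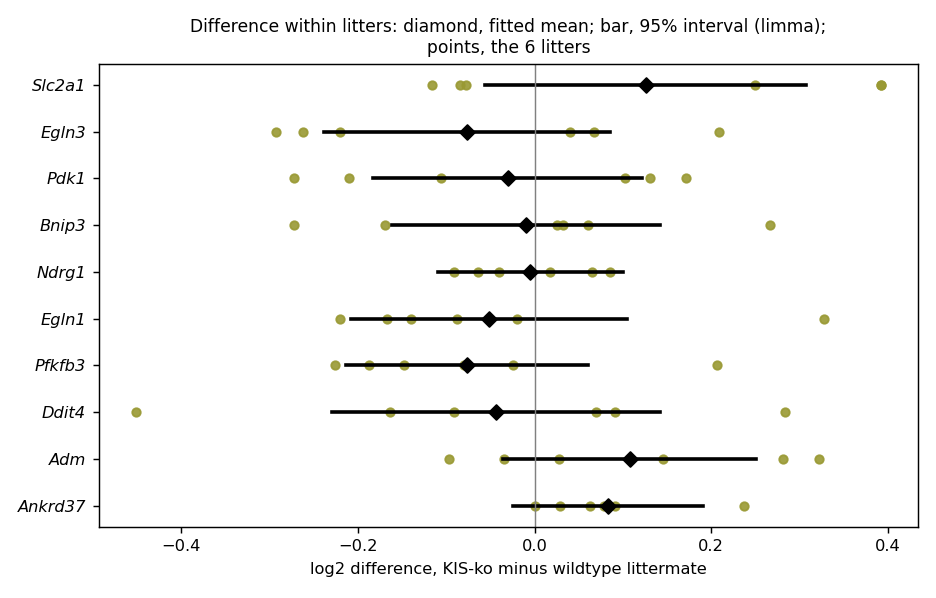
Log2 difference between KIS-ko and wildtype littermates (horizontal axis) for each of the 10 genes (vertical axis), with a point per litter, a diamond for the mean and a bar for the 95% interval of limma. Every bar crosses 0, and the litter differences of Slc2a1 fall into a positive and a negative group of 3.

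Between litters, 0 of the 10 genes and 0.0% of all genes passed the adjusted threshold (moderated F test of limma with the genotype in the fit). At an unadjusted p under 0.05 there was 1 of the 10, Ndrg1, against 11.3% of all genes. The Ndrg1 means of litters 1 to 6 were 10.91, 10.59, 10.66, 10.61, 10.31 and 10.77. Both brains of litter 1 were higher, and both brains of litter 5 lower, than the other 10 brains. The highest and the lowest litter were 0.60 apart, while littermates differed by 0.061 on average. The moderated F of limma was 12.2 (adjusted p = 0.154), above that of 99.7% of genes. Ndrg1 passed with dim probesets left out (adjusted p = 0.0325), where 2.46% of all genes passed, and with a trended and robust variance (adjusted p = 0.0208), where 0.972% did. Without litter 5 its unadjusted p of the F test was 0.0218 in place of 0.000483, and it did not pass after adjustment. Oligodendrocyte markers, counted because myelinating cells can carry Ndrg1, were all quantified (10 of 10), and their mean level relative to the array median gene lay between 0.43 and 0.54 in wildtype and between 0.38 and 0.62 in KIS-ko. The correlation of Ndrg1 with them over the 12 brains was -0.40 (rho -0.41, permutation p = 0.229 and 0.217, adjusted p = 0.743 and 0.692) and 0.039 without the 2 farthest brains, and their part in the difference between litters was not tested.

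The litter means of Pfkfb3 ran from 10.04 to 10.09, a range of 0.050, with an F of 0.078 that was lower than in all but 0.388% of genes. This depended on the scaling, since with the array median gene removed its litter means spanned 0.11, and limma's unadjusted p between litters was 0.569 with centred arrays in place of 0.994. Its standard deviation over the 12 brains, 0.051 with the array median gene and genotype mean removed, was at the 5.89th percentile of all genes. Litter means of the other 8 genes spanned 0.097 (Egln1) to 0.35 (Slc2a1), and their unadjusted p of the F test lay between 0.0875 (Pdk1) and 0.912 (Egln1). With the array median gene removed, the litter means of Egln1 spanned 0.18 and its unadjusted p was 0.353 with centred arrays, while Ndrg1 spanned 0.46 (adjusted p = 0.206).

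To ask whether the 10 genes moved together, the deviation of each brain from its genotype mean was taken after removal of the array median gene. Pearson's r was computed for the 45 pairs of genes over 12 brains, with permutation p-values adjusted over the 45 pairs (two-sided, Benjamini-Hochberg). Littermates share a litter, so that the 12 brains are not fully independent. The median r was -0.014, against 0.066 for all pairs of the 17279 genes, and 20 of the 45 were positive. Of the 45 pairs 3 (6.67%) reached an r of 0.7, against 4.74% of all pairs of genes. That share was near the share over all pairs of genes.

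**Figure D3:**
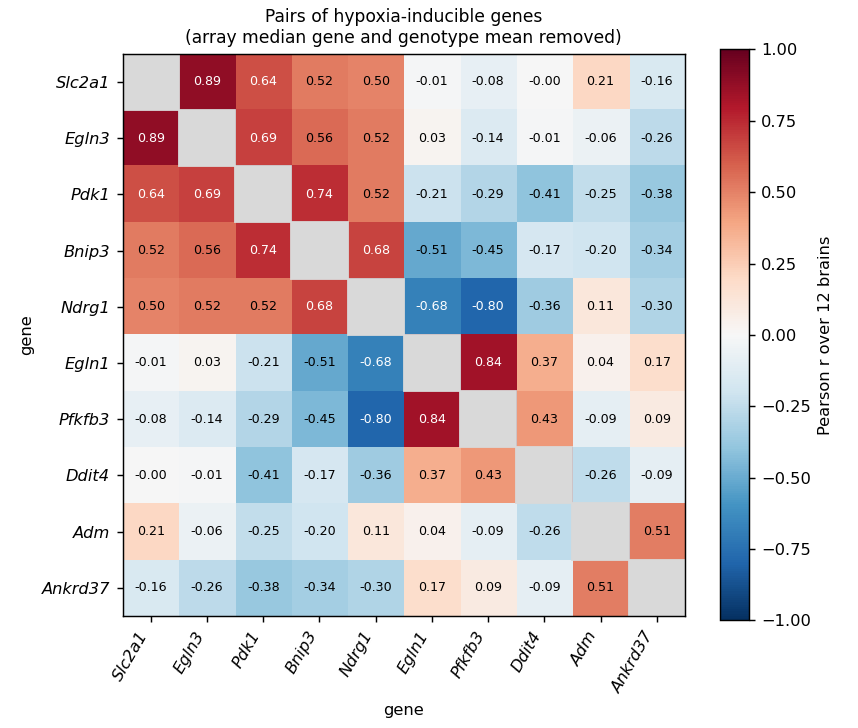
Pearson's r over 12 brains for each pair of the 10 genes (both axes list the genes), with the array median gene and the genotype mean removed, in red for positive and blue for negative values. Slc2a1, Egln3, Pdk1, Bnip3 and Ndrg1 are positive with one another, Egln1 with Pfkfb3 reaches 0.84, and Ndrg1 with Pfkfb3 falls to -0.80.

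Slc2a1 and Egln3 were the closest pair. Pearson's r was 0.887 (permutation p = 0.00031, adjusted p = 0.014) and Spearman's rho 0.860 (permutation p = 0.00058, adjusted p = 0.026), and r was 0.785 without the 2 brains farthest from the median of Slc2a1. Of all pairs of genes, 0.308% had an r at least as high. The KIS-ko brain of litter 1 was highest for both genes, at 0.24 and 0.16 above its genotype mean, and the KIS-ko brains of litters 2 and 5 were the 2 lowest for Egln3 and among the 3 lowest for Slc2a1. Within genotypes r was 0.810 in wildtype and 0.938 in KIS-ko (n = 6 brains each). It was 0.84 over the 6 litter means and 0.951 over the 6 littermate differences (exact permutation p = 0.0486, adjusted p = 0.513 over 45 pairs). The pair passed without litter 4 but not without any of the other litters, nor with the filter at 0.2, with dim probesets left out or with the median over probesets, where r was still at least 0.762.

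Egln1 and Pfkfb3 were the other pair past the adjusted threshold. Pearson's r was 0.838 (permutation p = 0.00154, adjusted p = 0.0347), while Spearman's rho of 0.713 did not pass after adjustment (permutation p = 0.0137, adjusted p = 0.172). Without the 2 brains farthest from the median of Egln1, r was 0.650. Of all pairs of genes, 0.923% had an r of at least 0.838. Both brains of litter 5 and the KIS-ko brain of litter 4 were highest for Pfkfb3, at 0.070 to 0.080 above the genotype mean, and were among the 4 highest for Egln1. The correlation was 0.853 in wildtype and 0.863 in KIS-ko, 0.929 over litter means and 0.717 over littermate differences (exact permutation p = 0.143, adjusted p = 0.715). The pair passed without litter 2 but not without any of the other litters, nor with the filter at 0.2 or the median over probesets, and r was at least 0.505 in these settings.

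Bnip3 and Pdk1 followed with r = 0.737 (permutation p = 0.0179, adjusted p = 0.197), which was 0.960 in KIS-ko and 0.228 in wildtype. The difference between the genotypes was not tested. Next came Egln3 with Pdk1 (0.685), Bnip3 with Ndrg1 (0.676) and Slc2a1 with Pdk1 (0.643). In the other direction, Ndrg1 and Pfkfb3 had an r of -0.796 (permutation p = 0.00549, adjusted p = 0.0824), with both brains of litter 5 low for Ndrg1 and high for Pfkfb3. Their r was -0.593 without the 2 farthest brains. Egln1 and Ndrg1 had an r of -0.678 (permutation p = 0.0249, adjusted p = 0.197), which was -0.365 without the 2 farthest brains. The pattern of pairs, in which Slc2a1, Egln3, Pdk1, Bnip3 and Ndrg1 were positive with one another and Egln1, Pfkfb3 and Ddit4 with one another, was noticed in the values themselves and has no test. It did not hold throughout. Over littermate differences Ndrg1 had an r of -0.28 with Slc2a1 and -0.45 with Egln3, and in wildtype brains Ddit4 had an r of -0.41 with Egln1 and -0.21 with Pfkfb3. Adm and Ankrd37, the dim genes, had an r of 0.51 with each other (rho 0.32, permutation p = 0.197 and 0.372, adjusted p = 0.523 and 0.784). Without the 2 farthest brains their r was 0.40.

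**Figure D4:**
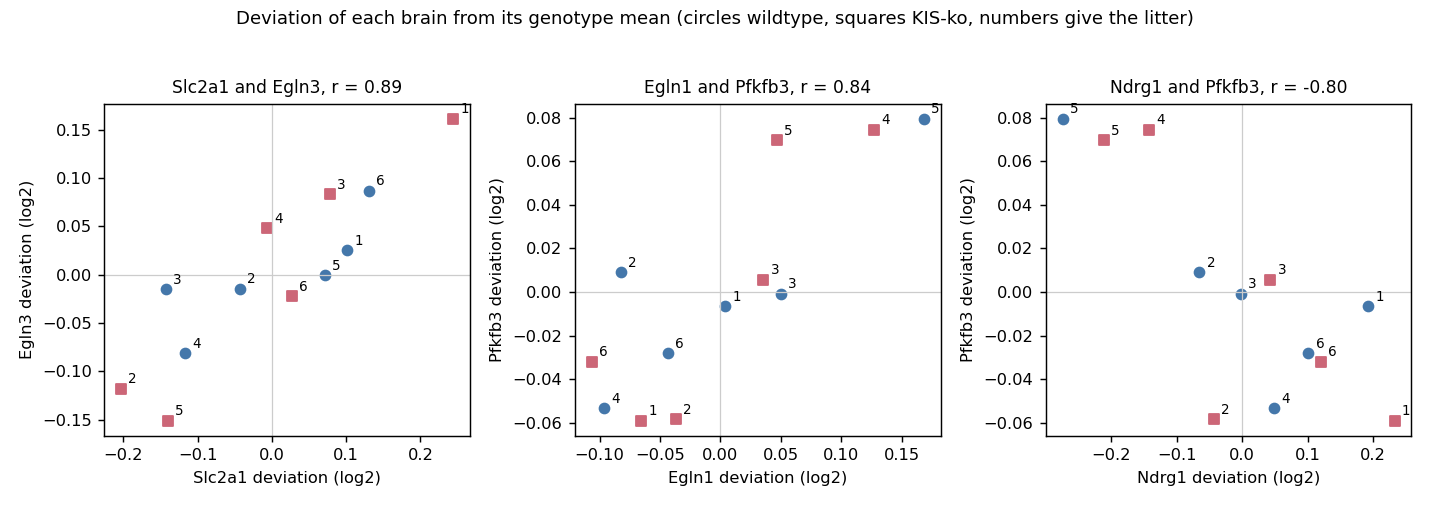
Deviations of the 12 brains from their genotype means (log2, array median gene removed) for Slc2a1 and Egln3, Egln1 and Pfkfb3, and Ndrg1 and Pfkfb3, with circles for wildtype, squares for KIS-ko and numbers for litters. The points rise in the first and second panels and fall in the third, where the brains of litter 5 lie at the upper left.

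The correlations depended on the treatment of the array median. With the array median gene left in, the median r of the 45 pairs was 0.356 (0.089 for all pairs of genes), 37 pairs were positive, 11 (24.4%) reached an r of 0.7 against 6.3% of all pairs of genes, and 8 passed the adjusted threshold (permutation tests). The array median gene ranged from 8.66 to 8.87 over the 12 arrays. Ndrg1 and Pfkfb3 then had an r of 0.15 in place of -0.80, whereas Slc2a1 and Egln3 had 0.931 and Egln1 and Pfkfb3 0.867. Over littermate differences alone the median r was 0.030. A lone pair could not pass after adjustment there, since the smallest exact permutation p over 6 litters, 0.00139, becomes 0.0625 over 45 pairs. Differences of Slc2a1 and Pdk1 had an r of 0.914 there (exact permutation p = 0.0125, adjusted p = 0.479).

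The RNA of genes whose products make up or destroy HIF was read beside that of its targets, and protein was not measured. Of 12 subunits and regulators all were quantified, and 0 passed limma's test at the adjusted threshold or at an unadjusted p under 0.05. Of the 12, 11 had a lower mean in KIS-ko (69.8% of all genes had), and 5 with centred arrays (37.1% of all genes had). The HIF alpha subunits Hif1a and Epas1 had values of 11.57 ± 0.069 and 10.22 ± 0.088 in wildtype and 11.51 ± 0.060 and 10.22 ± 0.078 in KIS-ko (SD, n = 6). Hif3a, whose products include inhibitors of HIF, was the exception in direction with 8.97 ± 0.20 and 9.08 ± 0.26. The constant partners Arnt and Arnt2 differed by -0.082 and -0.013. Vhl, the von Hippel-Lindau protein, differed by -0.066, its partners Tceb1, Tceb2 and Cul2 by -0.059, -0.046 and -0.098, the hydroxylases Egln2 and Hif1an by -0.026 and -0.0058, and Cited2, which competes with HIF for coactivators, by -0.037.

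The mean of these 12 genes correlated with the 10 targets in both directions over the 12 brains. Its r was 0.829 with Pfkfb3 (rho 0.524, permutation p = 0.00819 and 0.0970, adjusted p = 0.266 and 0.677) and 0.776 with Egln1 (rho 0.664, permutation p = 0.00764 and 0.0248, adjusted p = 0.266 and 0.535). In the other direction it was -0.761 with Ndrg1 (rho -0.427, permutation p = 0.0105 and 0.183, adjusted p = 0.272 and 0.692) and -0.702 with Bnip3 (rho -0.650, permutation p = 0.0201 and 0.0288, adjusted p = 0.349 and 0.535). Without the 2 brains farthest from the median of each target these were 0.699, 0.541, -0.38 and -0.578, and none of them passed after adjustment over the 130 relations of a target with the mean of a gene list.

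Of 28 other HIF targets 27 were quantified and Lox was not analysed here. Their median log2 difference was -0.030 against -0.036 over all genes (0.027 against 0.021 with centred arrays). Of the 27, 18 were lower in KIS-ko, where 69.8% of all genes were (12, against 37.1%, with centred arrays), 0 passed the adjusted threshold, and 3 were lower (4.34% of all genes were) and 0 higher at an unadjusted p under 0.05. Tfrc, the transferrin receptor, had the largest difference of the list (-0.26, SE 0.083, limma adjusted p = 0.685, lower in 5 of 6 litters). It was followed by Bhlhe41, a transcriptional repressor of the clock (-0.18, SE 0.070, limma adjusted p = 0.685, lower in 6 of 6). The share of all genes lower in all 6 litters was not computed. Epo, the hormone of red cell formation, had values of 6.51 ± 0.25 in wildtype and 6.67 ± 0.22 in KIS-ko (SD, n = 6), below the median control, and Insig2, a regulator of sterol synthesis, differed by -0.15. Between litters 5 of the 27 had an unadjusted p under 0.05, as did 11.3% of all genes, and 0 passed after adjustment.

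Of 15 glycolytic genes 14 were quantified and Ldha was not analysed here. Their means were lower in KIS-ko for 13 (69.8% of all genes were), with a median difference of -0.043 against -0.036 over all genes. With centred arrays 6 were lower (37.1% of all genes were), with a median of 0.014 against 0.021 over all genes. None of the 14 passed either threshold. Aldoc, the brain aldolase, differed by -0.12, Eno2, the neuronal enolase, by -0.10, Pfkp, a phosphofructokinase, by -0.079 and Tpi1, triosephosphate isomerase, by -0.071. Pdk1 correlated with the mean of these genes over the 12 brains at r = 0.846 (rho 0.818, permutation p = 0.00431 and 0.00471, adjusted p = 0.266 and 0.306), and r was 0.709 without the 2 farthest brains. None of the 130 relations passed.

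Markers of vessels and of blood were measured beside Slc2a1 and Adm. The endothelial list was quantified in full (10 of 10), 9 of its genes had a lower mean in KIS-ko against 69.8% of all genes (6 of 10 against 37.1% with centred arrays) and none passed either threshold. Its mean level relative to the array median gene lay between 0.47 and 0.57 in wildtype and between 0.45 and 0.59 in KIS-ko. Ocln and Cldn5, proteins of tight junctions, differed by -0.15 and -0.11, opposite in sign to Slc2a1. The correlation of Slc2a1 with the list was 0.550 (rho 0.538, permutation p = 0.0940 and 0.0909, adjusted p = 0.573 and 0.677, r = 0.344 without the 2 farthest brains). Other targets were closer to it, namely Pdk1 (r = 0.667, rho 0.776, permutation p = 0.0342 and 0.00902, adjusted p = 0.404 and 0.391), Bnip3 (r = 0.666, rho 0.566, permutation p = 0.0341 and 0.0794, adjusted p = 0.404 and 0.677) and Egln3 (r = 0.608, rho 0.594, permutation p = 0.0665 and 0.0725, adjusted p = 0.550 and 0.673). Without the 2 farthest brains these were 0.732, 0.581 and 0.685. The erythroid list (9 of 10 quantified, Ahsp not analysed here) lay between -0.65 and -0.38 in wildtype and between -0.56 and -0.39 in KIS-ko relative to the array median gene, and its r with Adm was 0.806 (rho 0.860, permutation p = 0.00705 and 0.00058, adjusted p = 0.266 and 0.0754, r = 0.767 without the 2 farthest brains). The part of these markers in the values of the targets was not tested.

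The genes outside the 10 whose deviations were most like the mean of the 10 over the 12 brains were Anapc2 (r = 0.916), Mchr1 (0.910), Cd82 (0.908), 2410066E13Rik (0.888) and Rarb (0.881), chosen from all genes by this measure and given with no test. The mean deviation of the 10 genes itself was highest in the KIS-ko brain of litter 1, at 0.081 with 7 of 10 genes above their genotype mean, and lowest in the KIS-ko brain of litter 2, at -0.073 with 0 of 10.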

How the data were processed

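Each of the 12 newborn brains gave total RNA for 1 Affymetrix Mouse Exon 1.0 ST array. Per the labels, the authors used the Affymetrix Expression Console and its PLIER algorithm, after quantile normalization of exon-level data, and they deposited the linear signal intensity of every probeset (versions not given in the sources used here). The deposited table does not name the build of its positions.

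The table lists 229581 probesets. Main probesets that carry a gene symbol (221417) entered, less the 15948 whose relative standard deviation exceeded 0.4 among wildtype or among KIS-ko brains, following the study's methods. Of the 205469 kept, 84.9% are marked as matching 1 place. A gene value was the mean over probesets of log2(signal + 16). The test was limma 3.58.1 (R 4.3.3), with litter and genotype as terms and Benjamini-Hochberg adjustment over all 17279 genes, after a check on simulated data. The litter terms were tested with the moderated F test. Correlations between genes used 100000 permutations within genotypes, with numpy 2.4.6, scipy 1.17.1 and pandas 2.3.3 under Python 3.11.15 (plots: matplotlib 3.10.9).

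The pairing comes from the litter labels. Littermates' deviations from the genotype means correlated at between -0.114 and 0.473. Those of brains of different litters correlated at between -0.425 and 0.282, and at -0.0187 on average. The labels name 12 separate animals.

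The 10 genes and all gene lists were chosen with earlier results of these data known. The text names the 10 genes, Uhmk1, every listed HIF subunit and regulator, the 4 largest genotype differences among other HIF targets and among glycolytic genes, the 2 largest of each other list (endothelium, erythroid, oligodendrocyte, astrocyte, meninges, choroid plexus, neuron, glucocorticoid response, integrated stress response, immediate early), and the 5 genes most like the mean of the 10. Neuronal markers named for the tissue check are those of this rule. Ak4, Pkm and Map2 are listed in the table under older symbols. Alternatives were a pseudocount of 1 or 64, the fit without litter, a filter on relative standard deviation at 0.2 or none, brighter probesets only, probesets matching 1 place, centring or a further quantile normalization of arrays, medians in place of means over probesets, trended and robust moderation, the fold change of the study's methods, and each litter left out. Chosen after seeing the data were correlations with the array median left in and correlations of littermate differences.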

Additional observations from a re-analysis of the deposited data

How the results depend on the processing

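None of the 10 genes passed the adjusted threshold between genotypes in any setting run. At an unadjusted p under 0.05 limma called 0 of them in the main setting, against 6.16% of all genes. It called 2 with centred arrays (Slc2a1 and Ankrd37) and 2 without litter 4 (Egln1 and Pfkfb3). It called 1 with the relative standard deviation filter at 0.2 (Adm) and 1 after a further quantile normalization (Ankrd37). The share of all genes in these other settings is not given here. The median log2 difference of the 10 genes, -0.020, stayed within the spread between litters in every setting. It was 0.0079 with the relative standard deviation filter at 0.2 and 0.037 with centred arrays (0.021 over all genes, which centring shifts alike). It was 0.023 after a further quantile normalization, and -0.061 to 0.017 with each litter left out. Without the replicate block of the litter pairing it was also -0.020, and 0 genes passed, so that the block changed no call. Between litters the count of genes past the adjusted threshold was 0, and 1 (Ndrg1) with dim probesets left out or with trended and robust moderation, settings in which 281 and 168 genes of the whole array passed, against 0 in the main one. The cause was not tested. Leaving out dim probesets removed Adm and Ankrd37.

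The pairs of genes past the adjusted threshold numbered 2 in the main setting, 0 with the filter at 0.2, 1 with dim probesets left out, 0 with the median over probesets, 8 with the array median left in, 0 over littermate differences alone (where 6 litters do not allow a lone pair to pass), and between 0 and 2 with each litter left out (0 without litter 1, 3, 5 or 6, 1 without litter 2, and 2 without litter 4, where Bnip3 with Pdk1 passed in place of Egln1 with Pfkfb3). The cause was not tested. The share of all pairs of genes that would pass was not computed. Over 16 settings, the main one included, Slc2a1 with Egln3 passed in 8 (r of 0.762 to 0.931) and Egln1 with Pfkfb3 in 9 (r of 0.505 to 0.925). Adm and Ankrd37 lay near the intron controls, where differences are understated.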

Other observations

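The lists of other cell types and responses, measured in the same brains, had 0 genes past the adjusted threshold of limma between genotypes. All 8 astrocyte genes had a lower mean in KIS-ko, as had 69.8% of all genes, with a median log2 difference of -0.096 against -0.036 over all genes. With centred arrays 7 of 8 were lower, where 37.1% of all genes were, with a median of -0.040 against 0.021. Of the 8 genes 1, Gfap, the intermediate filament of astrocytes, had an unadjusted p under 0.05 and was lower, as were 4.34% of all genes (8.85 ± 0.11 in wildtype and 8.58 ± 0.21 in KIS-ko, SD, n = 6, limma adjusted p = 0.685, lower in 5 of 6 litters). Gjb6, an astrocytic connexin, differed by -0.13. Of the 10 genes of the integrated stress response 7 were lower (69.8% of all genes were), and 3 with centred arrays (37.1% of all genes were). Sesn2, a stress-induced inhibitor of mTORC1, was lower in 6 of 6 litters (-0.15, SE 0.053, limma adjusted p = 0.685). The share of all genes lower in all 6 litters was not computed. Slc7a11, the cystine transporter, differed by -0.15.

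The 10 quantified glucocorticoid-responsive genes (Zbtb16 was not analysed here) had a median pairwise r of 0.617 over the 12 brains, against -0.014 for the hypoxia-inducible genes and 0.066 for all pairs of genes. Their genotype differences had a median of -0.024 (0.032 with centred arrays), with Fkbp5 at -0.10 and Per1 at 0.090. The correlation of Ddit4, which belongs to both responses, with the mean of this list was 0.502 (rho 0.392, permutation p = 0.0804 and 0.216, adjusted p = 0.550 and 0.692). Pfkfb3 and Egln1 were closer to it, with an r of 0.683 (rho 0.643, permutation p = 0.0162 and 0.0280, adjusted p = 0.349 and 0.535, r = 0.649 without the 2 farthest brains) and of 0.600 (rho 0.497, permutation p = 0.0582 and 0.127, adjusted p = 0.550 and 0.692, r = 0.454 without them). Of 9 immediate early genes (Fosb was not analysed here) 6 had a higher and 3 a lower mean in KIS-ko (9 higher with centred arrays), where 69.8% of all genes were lower (37.1% with centred arrays), with Egr1 at 0.11 and Junb at 0.069.

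Median differences were -0.041 for the 10 oligodendrocyte genes (Cnp -0.14, Mog 0.089), -0.027 for the 7 meningeal genes (Dcn -0.099, Slc6a13 -0.098), 0.0035 for the 7 genes of the choroid plexus (Kl -0.10, Folr1 0.061), -0.026 for 7 neuronal genes (Syt1 -0.075, Stmn2 -0.055, with Rbfox3 not analysed here) and 0.017 for the 9 erythroid genes (Hbb-y 0.10, Epb4.2 0.065). With centred arrays these medians were 0.016, 0.030, 0.060, 0.031 and 0.074 in the same order, against 0.021 over all genes. No gene of these lists had an unadjusted p under 0.05 between genotypes.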
